A study of Saccharomyces cerevisiae with 46 samples.

Results

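RNA from cells depleted of Spt5 was compared directly with RNA from cells depleted of Spt4, in the budding yeast Saccharomyces cerevisiae. The comparison used 4 RNA-seq libraries, 2 of Spt5-AA and 2 of Spt4-AA, of the 10 RNA-seq libraries and 46 samples of the series, and they were chosen by their labels alone. The series asked what Spt4 and its partner Spt5 do for RNA polymerase II (RNAPII) as it transcribes, and whether losing one has the same effect as losing the other. Cells of both strains grew in rich glucose medium (YPD). AA stands for anchor away, in which the target protein carries an FRB domain and rapamycin ties it to FKBP12 on a ribosomal protein, so that it leaves the nucleus with the new ribosomes.

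Spt5-AA cells carried SPT5-FRB-eGFP and were harvested 180 min after rapamycin was added, and Spt4-AA cells carried SPT4-FRB-eGFP and were harvested at 140 min. Each strain also gave 1 library from cells treated with DMSO, the solvent, for 120 min (Spt5-FRB with DMSO and Spt4-FRB with DMSO). All 4 groups were BY4741 derivatives. They shared the rapamycin-resistant allele tor1-1, a deletion of FPR1, RPL13-2xFKBP12 as the anchor and RPB3-3xFLAG. The tested protein, the strain and the time in rapamycin therefore changed together and cannot be told apart, and no DMSO library entered the main comparison. Every level below is that of a whole culture, in which fewer cells and less RNA per cell cannot be told apart.

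Spt4 and Spt5 form one complex, known as DSIF in animals, that rides on RNAPII from early elongation to the end of the gene. Spt5 is essential and contacts the polymerase directly through its NGN and KOW domains, while Spt4 is a small zinc protein that binds the Spt5 NGN domain and is not needed for life in yeast. RNA-seq of total RNA measures what transcription and decay leave together, and so does not report on elongation alone.

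The recovered read totals were 798455 and 1138341 in Spt5-AA, 1957325 and 2730382 in Spt4-AA, 2082274 in Spt5-FRB with DMSO and 1866670 in Spt4-FRB with DMSO, so both Spt5-AA libraries were the shallowest. The median gene had 55 and 84 reads in Spt5-AA and 147 and 190 in Spt4-AA. On the scale that the authors deposited, joined through the DMSO libraries that both tables hold, summed RNA was 616701 and 634150 in Spt5-AA and 1721620 and 1939750 in Spt4-AA. The ratio of Spt5-AA to Spt4-AA there was 0.342, and the median gene changed by -1.55 on the log2 scale. The labels state that frozen Schizosaccharomyces pombe cells were mixed into each pellet, and the sources used here do not say from what the deposited factors were computed. The main comparison instead set the median ratio of each library to the same value, so "rose" and "fell" below are relative to the median gene, whose log2 fold change was 0.01. The deposited scale shifts the median gene by -1.55 on the log2 scale. A gene whose rise was smaller in size than that shift lies below Spt4-AA on the deposited scale.

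The cells were checked against the marker genes of their labels. Of 7 genes specific to MATa cells, the mating type of BY4741, 5 were listed, and their summed level was 1545 and 1419 rescaled reads in Spt5-AA against 1453 and 1276 in Spt4-AA. The 4 MATalpha genes were not analysed here. The 3 listed genes of sporulating diploids summed to 15.8 and 17.7 in Spt5-AA and 21.6 and 6.68 in Spt4-AA, and none passed the filter on low reads. FPR1, deleted in these strains by their labels, had 1 and 10 reads in Spt5-AA, 7 and 17 in Spt4-AA, and 14 and 10 with DMSO in Spt5-FRB and Spt4-FRB. HIS3, of which BY4741 lacks part, had 16 and 47 reads in Spt5-AA and 28 and 29 in Spt4-AA. In rescaled reads that was 31.6 and 59.4 in Spt5-AA and 20.2 and 16.1 in Spt4-AA. It was called higher in Spt5-AA (log2 fold change 1.22, but -0.31 on the deposited scale). TOR1 and SPT5 were not analysed here, and the tags on SPT4 and SPT5 do not remove their RNA, so their levels would not check the depletion.

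Sequence upstream of the genes at both ends of the comparison is shown because it differed in one short word, AGGGG, the stress response element that the activators Msn2 and Msn4 bind. The 3 genes with the largest rises, among genes with a mean of at least 50 rescaled reads in 1 group, were HSP12 on chromosome VI, YER053C-A on chromosome V and HSP42 on chromosome IV. Those with the largest falls were IZH4 on chromosome XV and RPS28B on chromosome XII. Each stretch runs from 400 to 101 bases before the start codon in the RefSeq R64 assembly, 5′ to 3′ on the strand of the gene, and capitals mark AGGGG or its complement CCCCT.
HSP12, chrVI:106856-107155, plus strand: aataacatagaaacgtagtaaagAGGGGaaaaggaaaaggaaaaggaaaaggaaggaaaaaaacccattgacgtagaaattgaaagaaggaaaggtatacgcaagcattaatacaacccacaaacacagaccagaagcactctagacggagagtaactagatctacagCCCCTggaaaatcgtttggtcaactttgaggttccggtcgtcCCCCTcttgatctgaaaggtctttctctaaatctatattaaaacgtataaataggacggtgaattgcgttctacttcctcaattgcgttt
YER053C-A, chrV:261147-261446, minus strand: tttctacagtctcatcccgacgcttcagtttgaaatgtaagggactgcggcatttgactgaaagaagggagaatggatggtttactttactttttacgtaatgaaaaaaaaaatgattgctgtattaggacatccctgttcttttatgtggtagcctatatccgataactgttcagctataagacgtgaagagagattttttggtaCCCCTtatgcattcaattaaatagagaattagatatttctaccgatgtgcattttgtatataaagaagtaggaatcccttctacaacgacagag
HSP42, chrIV:806221-806520, plus strand: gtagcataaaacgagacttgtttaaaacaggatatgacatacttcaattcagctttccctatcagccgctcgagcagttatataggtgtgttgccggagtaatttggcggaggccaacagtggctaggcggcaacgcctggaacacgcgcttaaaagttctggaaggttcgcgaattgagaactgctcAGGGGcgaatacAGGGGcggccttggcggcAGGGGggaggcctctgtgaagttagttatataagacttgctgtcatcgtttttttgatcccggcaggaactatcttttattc
IZH4, chrXV:128021-128320, minus strand: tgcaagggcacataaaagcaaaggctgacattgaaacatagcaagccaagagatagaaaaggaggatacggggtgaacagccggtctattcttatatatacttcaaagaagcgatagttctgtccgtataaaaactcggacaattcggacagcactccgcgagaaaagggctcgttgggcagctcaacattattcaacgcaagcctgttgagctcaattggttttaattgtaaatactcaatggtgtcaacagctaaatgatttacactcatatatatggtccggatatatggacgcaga
RPS28B, chrXII:672731-673030, plus strand: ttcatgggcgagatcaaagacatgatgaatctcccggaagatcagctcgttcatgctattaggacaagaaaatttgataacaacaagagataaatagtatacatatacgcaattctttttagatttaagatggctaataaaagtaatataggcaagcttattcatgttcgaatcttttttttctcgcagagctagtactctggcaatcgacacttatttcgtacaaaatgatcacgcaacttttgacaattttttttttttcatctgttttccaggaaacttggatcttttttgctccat
The HSP12 and HSP42 stretches hold 3 matches each and that of YER053C-A holds 1, while those of IZH4 and RPS28B hold 0. The counts over all promoters are given after the genes. They use other windows, 250 bases before to 50 after the start codon and 500 bases before it, so no share over all promoters belongs to the stretches shown.

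Of 4696 genes tested, 1379 (29.4%) differed between Spt5-AA and Spt4-AA at an adjusted p under 0.05 in limma with Benjamini-Hochberg adjustment. Among them 663 (14.1%) were higher in Spt5-AA and 716 (15.2%) were lower. These shares are the background for the counts of every gene group below. The rises were the larger changes: 375 of them were at least 2-fold, 70 at least 4-fold and 15 at least 8-fold, against 303 falls of at least 2-fold, 4 of at least 4-fold (IZH4, RPS28B, CLB1 and APA1) and 0 of at least 8-fold. The libraries of Spt5-AA and Spt4-AA did not overlap in 3099 genes (66%). In 2740 genes averaging 100 reads or more, the interquartile range was 0.898 log2 units between the groups, against 0.379 between the Spt5-AA replicates and 0.506 between the Spt4-AA replicates. The labels call these libraries replicates. The methods of the study define a biological repeat as an experiment run anew from a fresh aliquot of the strain, but the sources used here do not state that for these libraries in particular, so the p-values measure the spread between these libraries, which may be technical.

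Leaving out a library moved the count most when it was one of Spt5-AA: 537 genes were called without Spt5-AA replicate 1 and 585 without replicate 2, while 1378 and 1375 of the 1379 genes kept their direction. Every one of the 1379 that was still tested kept its direction. They were called from these same libraries, so their direction could hardly turn. On the deposited scale 4146 genes were called, only 51 of them higher in Spt5-AA.

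**Figure D1:**
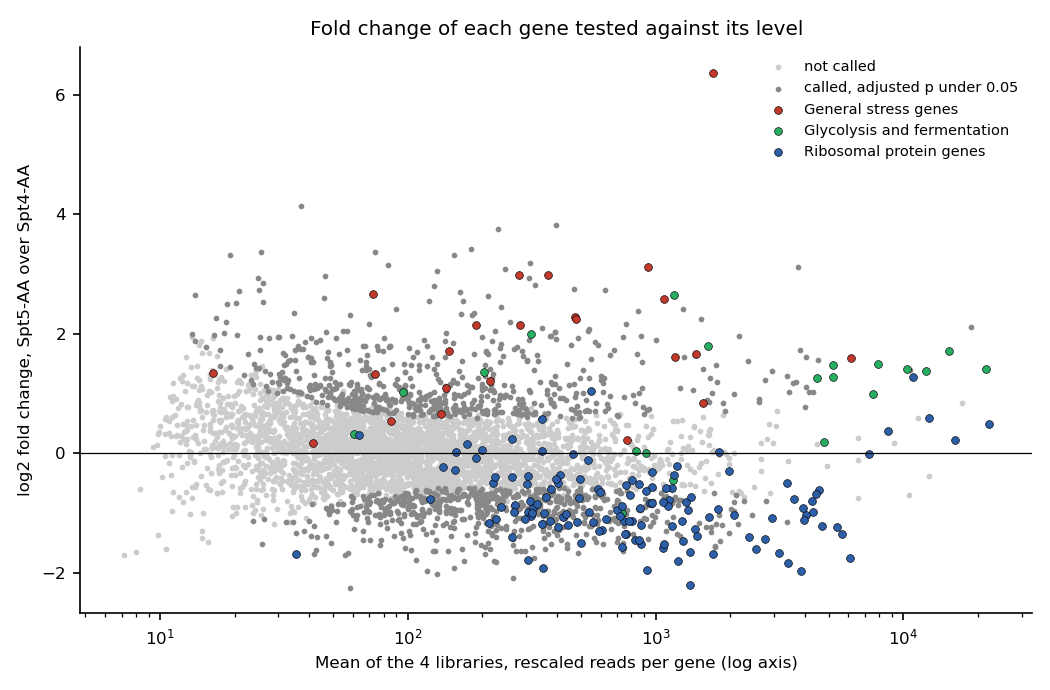
Log2 fold change of Spt5-AA over Spt4-AA (vertical axis) against the mean of the 4 libraries in rescaled reads (horizontal log axis), 1 point per gene tested, with general stress, glycolysis and ribosomal protein genes in colour. Stress and glycolysis genes lie mostly above 0 and ribosomal protein genes mostly below it.

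The genes at the ends of the comparison were ranked among those called with a mean of at least 50 rescaled reads in either group and no overlap. HSP12, which encodes a small membrane-stabilising stress protein, rose most. It had 3212 and 3501 rescaled reads in Spt5-AA and 50.4 and 31.2 in Spt4-AA, and 7.09 and 5.10 in the Spt5-FRB and Spt4-FRB strains with DMSO. Both Spt5-AA libraries were far above every other library, and the log2 fold change was 6.37 (SE 0.241, adjusted p = 1.45e-08 in limma). HSP42, a small heat-shock chaperone that gathers misfolded proteins, had 816 and 659 in Spt5-AA and 66.3 and 38.9 in Spt4-AA, a log2 fold change of 3.82 (SE 0.257, adjusted p = 2.87e-06 in limma). HSP104, the disaggregase that pulls aggregated proteins apart, had 7133 and 6322 in Spt5-AA and 813 and 729 in Spt4-AA (log2 fold change 3.12), and was the most abundant of the 10 genes with the largest rises.

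Metabolic genes were next to these chaperones at the top. ICL1, the isocitrate lyase of the glyoxylate cycle, had 314 and 347 rescaled reads in Spt5-AA and 34.6 and 26.1 in Spt4-AA, where it was close to its 22.1 and 33.1 with DMSO in Spt5-FRB and Spt4-FRB. GLC3, the glycogen branching enzyme, had 577 and 542 in Spt5-AA and 51.1 and 72.3 in Spt4-AA. Their log2 fold changes were 3.41 and 3.18. COX26, a small protein of the cytochrome oxidase supercomplexes, had 150.1 and 149 in Spt5-AA and 20.9 and 12.2 in Spt4-AA. Its DMSO levels also differed between the strains, at 15.0 in Spt5-FRB and 4.25 in Spt4-FRB, and its log2 fold change of 3.15 became 1.54 (adjusted p = 0.196 in limma) once that difference was taken off.

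The other 4 of the 10 are less studied or belong to other life stages. TMA10, a ribosome-associated protein, had 363 and 503 rescaled reads in Spt5-AA and 33.1 and 28.4 in Spt4-AA (log2 fold change 3.76). YGR201C, of unknown function, had 298 and 263 in Spt5-AA and 27.4 and 27.3 in Spt4-AA (3.31). RIM4, an RNA-binding repressor of translation in meiosis, had 174 and 94.8 in Spt5-AA and 20.9 and 6.12 in Spt4-AA (3.37), so the replicates of each group were well apart while the groups did not overlap. YER053C-A, a short uncharacterised protein, rested on few reads, with 51 and 33 in Spt5-AA and 6 and 3 in Spt4-AA (4.13, SE 0.594).

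The largest fall was that of IZH4, a membrane protein of zinc homeostasis. It had 21.7 and 17.7 rescaled reads in Spt5-AA and 92.2 and 102 in Spt4-AA, with 70.1 and 51.8 in Spt5-FRB and Spt4-FRB with DMSO between them, and its log2 fold change was -2.25 (SE 0.278, adjusted p = 0.000175 in limma). Its paralogue IZH2 also fell, with 63.2 and 63.2 in Spt5-AA and 257 and 230.3 in Spt4-AA (-1.93). CLB1, a mitotic B-type cyclin, had 90.9 and 111 in Spt5-AA and 439 and 421 in Spt4-AA, close in Spt4-AA to the 465 and 368 of the DMSO libraries of Spt5-FRB and Spt4-FRB. Its log2 fold change was -2.08 (SE 0.207). APA1, which breaks down diadenosine polyphosphates, had 43.5 and 60.6 in Spt5-AA and 205 and 219 in Spt4-AA (-2.02), and HO, the endonuclease of mating-type switching, which laboratory strains carry in an inactive form, had 47.4 and 48.0 in Spt5-AA and 180.1 and 203 in Spt4-AA (-1.98).

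The remaining 5 of the 10 largest falls were genes of the small ribosomal subunit. RPS28B had 518 and 466 rescaled reads in Spt5-AA and 2304 and 2230.4 in Spt4-AA, against 5227 in Spt5-FRB and 4630.2 in Spt4-FRB with DMSO, so both depletions lay below DMSO and Spt5-AA lay further below (log2 fold change -2.20, SE 0.211, adjusted p = 2.68e-05 in limma). RPS18B had 1582 and 1553 in Spt5-AA and 6093 and 6278 in Spt4-AA (-1.98), RPS16B -1.95, RPS7B -1.92 and RPS17B -1.84 on the log2 scale. RPS18B, RPS16B and RPS17B each match a second gene at 90% identity or more, so that reads could be split between copies. All 10 of these genes fell on the deposited scale too, by more.

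**Figure D2:**
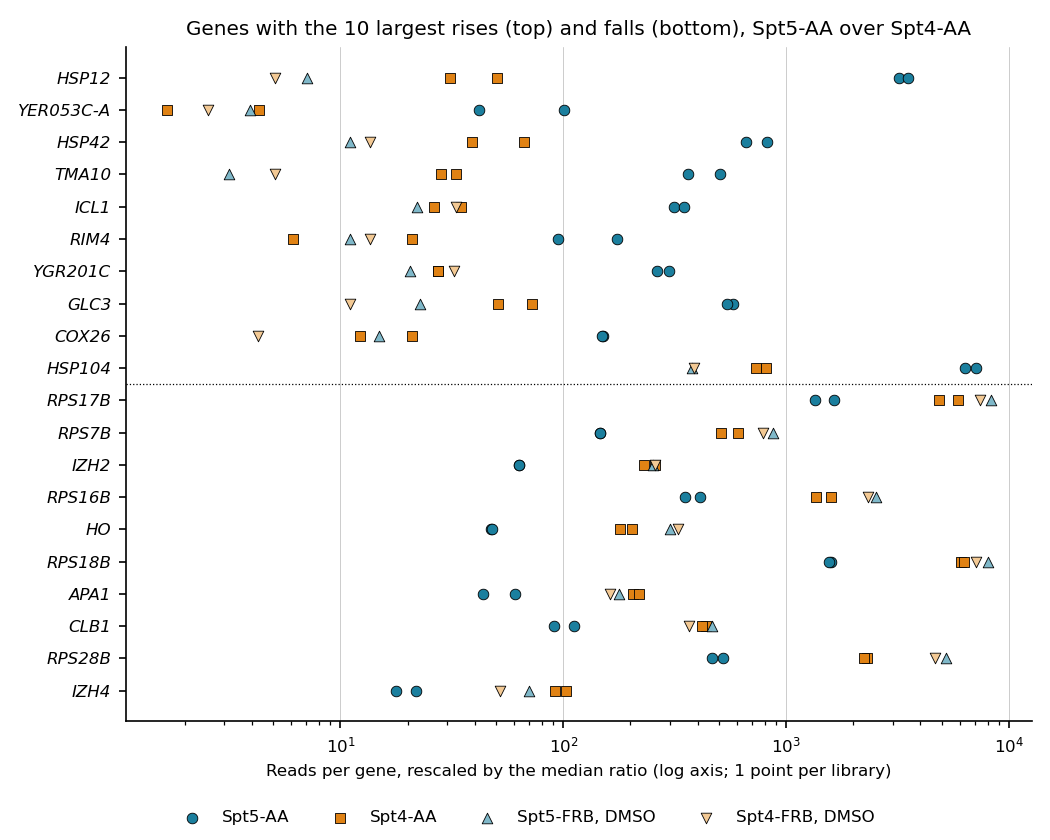
Rescaled reads (log axis) of the 10 genes with the largest rises and the 10 with the largest falls among genes called, with circles for Spt5-AA, squares for Spt4-AA and triangles for the DMSO library of each strain. HSP12 sits at 3212 and 3501 in Spt5-AA. All 20 genes separate Spt5-AA from Spt4-AA because the selection required groups without overlap.

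Genes of the transcription machinery itself moved less than these. SPT4 had 101 and 97.3 rescaled reads in Spt5-AA and 187 and 211 in Spt4-AA, where it carries the FRB tag, with 243 and 178 in Spt5-FRB and Spt4-FRB with DMSO. Its log2 fold change was -0.9999 (SE 0.206, adjusted p = 0.00381 in limma), and with the strain difference in DMSO taken off it was -1.44 (adjusted p = 0.0449 in limma). Of 33 genes for SPT4 and other elongation factors, 6 were called higher (18.2%) and 5 lower (15.2%), near the background of 14.1% and 15.2%. The 33 genes had a median log2 fold change of 0.04. CTK3, a subunit of the kinase CTDK-I that phosphorylates the RNAPII tail, rose most among them (1.87, SE 0.619) at 21.7 and 22.7 in Spt5-AA and 7.20 and 3.89 in Spt4-AA. SUB2, the helicase that couples elongation to RNA export, had 1752 and 1428 in Spt5-AA and 2712 and 3888 in Spt4-AA (-1.04). Without Spt5-AA replicate 1, 1 gene of the list was called higher and 2 lower, and without replicate 2 the counts were 2 and 1.

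Subunits of RNAPII were on the low side. Of 11 tested, 4 fell (36.4%) and 0 rose, and all 11 log2 fold changes were below 0, with a median of -0.36. RPB4, which forms the dissociable stalk of the enzyme, had 186 and 177 rescaled reads in Spt5-AA and 514 and 367 in Spt4-AA (-1.26, SE 0.22), while the most abundant, RPB2, had 1709 and 1436 in Spt5-AA and 2218 and 1818 in Spt4-AA (-0.36, not called). RPB3, which carries the FLAG tag in both strains, had a log2 fold change of -0.09 and overlapping groups. Among 18 subunits of RNA polymerases I and III, 4 fell (22.2%), led by RPC17 (-1.54), and 1 rose (5.56%). The rise was that of RPO31, the largest subunit of RNA polymerase III (0.59, but -0.997 on the deposited scale). On that list 1 gene was lower and 0 higher without Spt5-AA replicate 1, 2 lower and 0 higher without replicate 2, and 8 lower and 1 higher without Spt4-AA replicate 1. Among 18 general transcription factor genes 8 fell (44.4%) and 1 rose (5.56%), CCL1, the cyclin of TFIIH (0.73, but -0.84 on the deposited scale). TOA2, the small subunit of TFIIA, fell most, with 215 and 174 in Spt5-AA and 635 and 492 in Spt4-AA (-1.52). With Spt5-AA replicate 1 or replicate 2 left out, the falls among RNAPII subunits came to 1 each time, and those among general factors to 3 without replicate 1 and 2 without replicate 2.

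The general stress genes, which Msn2 and Msn4 switch on in many kinds of stress, were the functional group furthest above the median gene. Of 23 tested, 19 rose and 0 fell, 82.6% against 14.1% of all genes, and their median log2 fold change was 1.66 (0.07 on the deposited scale, where 10 were higher and 5 lower). Beside HSP12, the rises ran from 0.65 for DCS1, of the scavenger decapping family, to 3.12 for STF2. HOR7, a small abundant stress protein, had 9788 and 8695 rescaled reads in Spt5-AA and 3763 and 2462 in Spt4-AA, against only 366 in Spt5-FRB and 416 in Spt4-FRB with DMSO, so it lay above DMSO in both depletions. The median of the group did likewise, at 2.94 over the own DMSO library in Spt5-AA and 0.91 in Spt4-AA. Of the 23 genes, 17 were still called higher without Spt5-AA replicate 1, 17 without replicate 2 and 13 with the strain difference in DMSO taken off.

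Genes for the stores of carbohydrate rose with them, as 8 of 15 genes of trehalose and glycogen metabolism were higher (53.3%) and 1 was lower (6.67%). Their median of 0.87 turned to -0.69 on the deposited scale. GLC3 led the rises, and TSL1, a regulatory subunit of trehalose synthase, followed at 2.81. The single fall was that of GLC7, the catalytic subunit of a protein phosphatase that acts on glycogen synthase and much else, with 1043 and 840.1 in Spt5-AA and 2899.8 and 1895 in Spt4-AA (-1.32).

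Chaperone genes had calls in both directions. Of 40 genes tested 13 rose and 4 fell (32.5% and 10%), with a median of 0.39 that turned to -1.19 on the deposited scale. HSP82, a copy of Hsp90, had 35669.7 and 25381 rescaled reads in Spt5-AA and 6125 and 8004 in Spt4-AA, against 1883 in Spt5-FRB and 1695 in Spt4-FRB with DMSO (2.10, SE 0.33). Reads of HSP82 could be split with HSC82, its near-identical copy. The 4 that fell were TCP1 and CCT2, subunits of the cytosolic chaperonin for actin and tubulin, PFD1 of prefoldin, which feeds it, and HCH1, a co-chaperone of Hsp90. TCP1 had 1088 and 907 in Spt5-AA and 2229 and 2469.6 in Spt4-AA (-1.24). Without Spt5-AA replicate 1, 11 chaperone genes were called higher and 2 lower, and without replicate 2 the counts were 10 and 0. UBI4, the stress-induced polyubiquitin gene, had 3613 and 3189 in Spt5-AA and 1701 and 1945 in Spt4-AA against 213 and 231 with DMSO in Spt5-FRB and Spt4-FRB, so most of its rise over DMSO was present in both depletions (0.90, but -0.69 on the deposited scale). Proteasome and ubiquitin genes were called less often than the background in both directions, at 5.26% higher and 10.5% lower. Of 38 proteasome and ubiquitin genes, 2 were higher and 4 lower in Spt5-AA, and 0 were called in either direction with Spt5-AA replicate 1 or with replicate 2 left out.

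The genes of glycolysis and fermentation, among the most abundant RNAs in yeast, rose in Spt5-AA relative to the median gene. Of 20 tested 14 rose (70%) and 1 fell (5%), with a median of 1.32. On the deposited scale the median turned to -0.27, with 1 gene higher and 7 lower. GLK1, a glucokinase that overlaps another annotated gene, had 2249.8 and 1862 rescaled reads in Spt5-AA and 293 and 365 in Spt4-AA (2.64, SE 0.221). ADH1, the main alcohol dehydrogenase, had 33449 and 29029 in Spt5-AA and 10784 and 12843 in Spt4-AA, close in Spt4-AA to its 12727 and 11150.4 with DMSO in Spt5-FRB and Spt4-FRB (1.40, but -0.18 on the deposited scale). The 1 fall, ADH3, the mitochondrial alcohol dehydrogenase, rested on Spt4-AA replicates of 566 and 1468 against 448 and 459.9 in Spt5-AA (-1.004). Rises numbered 7 without Spt5-AA replicate 1 and 11 without replicate 2.

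Of 6 hexose transporter genes tested 3 rose (50%, against 14.1% of all genes), HXT5, HXT1 and HXT3, with a median over the 6 of 0.79 that turned to -0.77 on the deposited scale. HXT5, the transporter of slow-growing cells, had 35.6 and 53.1 rescaled reads in Spt5-AA and 7.92 and 2.78 in Spt4-AA (2.94, SE 0.564), and HXT3, a low-affinity transporter, had 599 and 600.1 in Spt5-AA and 429 and 361 in Spt4-AA (0.61, but -0.98 on the deposited scale). Rises among the 6 numbered 2 without Spt5-AA replicate 1 and 1 without replicate 2. In the TCA cycle and oxidative phosphorylation, 9 of 50 genes rose (18%) and 4 fell (8%). The share of rises was near the background of 14.1%, and that of falls was below the background of 15.2%. CIT2, the peroxisomal citrate synthase, had 1242 and 1241 in Spt5-AA and 254 and 303 in Spt4-AA (2.16), and ACO1, aconitase, had 3397 and 3465 in Spt5-AA and 749 and 1048 in Spt4-AA (1.95). The 4 that fell were COX4, a subunit of cytochrome oxidase (-0.87), and the ATP synthase subunits ATP5, ATP4 and ATP2.

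Ribosomal protein genes were the largest group below the median gene. Of 134 tested 84 fell (62.7%, against 15.2% of all genes) and 2 rose, and the median log2 fold change was -0.93 (-2.52 on the deposited scale). In the small subunit 37 of 55 fell and 0 rose, with a median of -1.03, and in the large subunit 47 of 79 fell and 2 rose, with a median of -0.85. RPL20A had 132 and 141 rescaled reads in Spt5-AA and 458 and 496 in Spt4-AA (-1.79), and RPL23B had 3228 and 2360.0 in Spt5-AA and 10778 and 8016 in Spt4-AA (-1.75). Both depletions lay below their DMSO library, by a median of -1.46 in Spt5-AA and -0.53 in Spt4-AA.

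The fall was not shared by every ribosomal protein gene. RPL41B, which encodes the shortest ribosomal protein, had 17535 and 13418 rescaled reads in Spt5-AA and 7314 and 5494 in Spt4-AA and rose (1.27, but -0.31 on the deposited scale). RPL8A, which has a near-identical copy, had 689 and 785 in Spt5-AA and 336 and 379 in Spt4-AA, both below the 976 and 821 with DMSO in Spt5-FRB and Spt4-FRB (1.04, but -0.54 on the deposited scale). The most abundant, RPL10, had 30188 and 21698 in Spt5-AA and 18255 and 18340.3 in Spt4-AA (0.48, not called, and -1.10 on the deposited scale). RPL13A and RPL13B, which encode the protein used as the anchor, were not called (0.02 and -0.52). Of the 92 genes with a near-identical copy 66 fell, and of the 42 without one 18 fell, with medians of -1.05 and -0.61. Without Spt5-AA replicate 1 the falls numbered 39 and without replicate 2 they numbered 46, against 104 without Spt4-AA replicate 1.

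Genes of other parts of the translation machinery were mixed. Mitochondrial ribosomal protein genes were called less often than the background in both directions (11.8% higher, 8.82% lower). Of 36 translation factor genes 15 fell (41.7%) and 3 rose (8.33%), with a median of -0.35. RLI1, the ATPase that splits ribosomes after termination, had 98.8 and 98.5 rescaled reads in Spt5-AA and 383 and 314 in Spt4-AA (-1.80, SE 0.207). The 3 that rose encode elongation factors, and among them TEF2 had 4841 and 4568 in Spt5-AA and 1276 and 2927 in Spt4-AA (1.28, but -0.31 on the deposited scale), with a copy, TEF1, almost identical in sequence. With 1 Spt5-AA library left out, whichever it was, 8 translation factor genes were called lower and 0 higher. In ribosome biogenesis, CBF5, the pseudouridine synthase of ribosomal RNA, had 814 and 579 in Spt5-AA and 1533 and 2093 in Spt4-AA (-1.38). SPB4, a helicase of the large subunit, had 348 and 275 in Spt5-AA and 94.4 and 144 in Spt4-AA (1.40, but -0.18 on the deposited scale). Of 80 ribosome biogenesis genes 18 fell (22.5%) and 6 rose (7.5%). With 1 Spt5-AA library left out, whichever it was, 4 of these genes were called lower and 2 higher. Of 68 mitochondrial ribosomal protein genes 8 rose and 6 fell with a median of -0.01, but 2 rose and 2 fell without Spt5-AA replicate 1, and 3 and 1 without replicate 2.

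**Figure D3:**
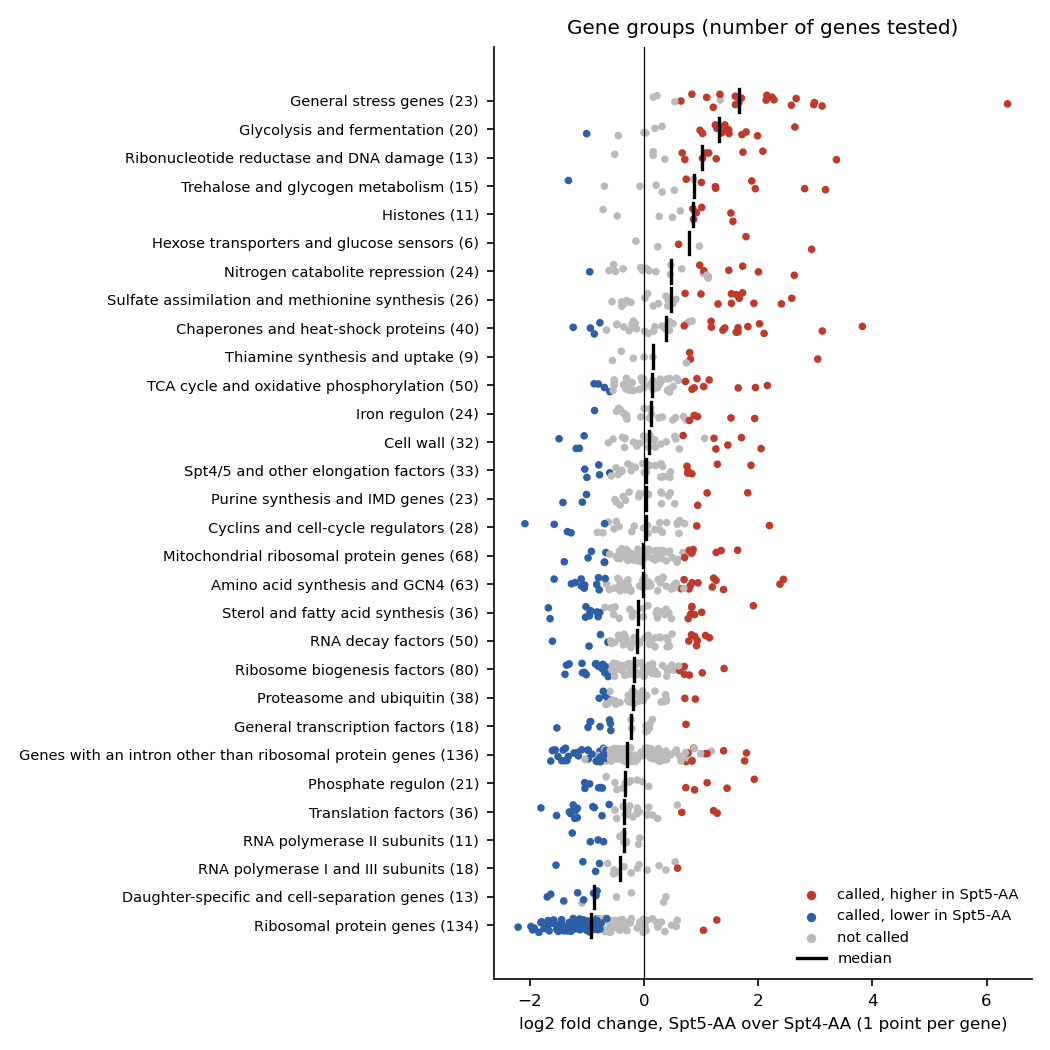
Log2 fold change of Spt5-AA over Spt4-AA (horizontal axis) for each gene of each group, with the group median as a black bar, red for genes called higher, blue for genes called lower and grey for genes not called. General stress genes have the highest median, 1.66, and ribosomal protein genes the lowest, -0.93.

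Histone genes and the genes that respond to damaged DNA were above the median gene. Of 11 histone genes 6 rose (54.5%) and 0 fell, with a median of 0.86 that turned to -0.73 on the deposited scale. HHT2, one of a pair of histone H3 genes, had 6461 and 7010.5 rescaled reads in Spt5-AA and 2008 and 2604 in Spt4-AA (1.56, but -0.03 on the deposited scale). Of 13 genes for ribonucleotide reductase and the DNA damage response 9 rose (69.2%) and 0 fell. Their median of 1.02 turned to -0.56 on the deposited scale. HUG1, an inhibitor of ribonucleotide reductase, had 23 and 39 reads in Spt5-AA and 8 and 4 in Spt4-AA, so its log2 fold change of 3.37 (SE 0.56) rested on few reads. RNR4, a small subunit of the enzyme, was abundant at 4893 and 4366 rescaled reads in Spt5-AA and 2163 and 2389 in Spt4-AA (1.02, but -0.56 on the deposited scale). With 1 Spt5-AA library left out, whichever it was, the called histone genes came to 2, while those of the DNA damage list came to 5 without replicate 1 and 6 without replicate 2.

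Of 28 cyclins and cell-cycle regulators 5 fell, CLB1, CLB2, SWI5, FAR1 and CDC5, and 2 rose, PCL1 and SIC1. These are 17.9% against 15.2% of all genes lower and 7.14% against 14.1% higher, so the falls were near the background. The counts were 4 lower and 1 higher without Spt5-AA replicate 1, and the same without replicate 2. PCL1, a cyclin of the kinase Pho85 used at the start of the cycle, had 476 and 378 rescaled reads in Spt5-AA and 83.6 and 101 in Spt4-AA (2.20, SE 0.217). The genes that daughter cells use to digest the wall between them and the mother were lower in 8 of 13 cases (61.5%, against 15.2% of all genes) with 0 rises, at a median of -0.88 (-2.43 on the deposited scale). DSE2 had 17.8 and 20.2 rescaled reads in Spt5-AA, 75.6 and 53.4 in Spt4-AA, and 158 and 161 in Spt5-FRB and Spt4-FRB with DMSO, so the order was Spt5-AA, then Spt4-AA, then DMSO, from low to high (-1.69, SE 0.319). CHS1, a chitin synthase of cell separation, had 342 and 339.8 in Spt5-AA and 635 and 588 in Spt4-AA (-0.84). Falls on this list numbered 5 without Spt5-AA replicate 1 and 6 without replicate 2.

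Of 7 genes that mark haploid cells of either mating type, 4 fell (57.1%) and 0 rose. STE5, FUS3 and STE18 were not called, with log2 fold changes of -0.34, -0.38 and 0.36 (STE18 -1.22 on the deposited scale), and the last, the gamma subunit of the pheromone G protein, was higher in both Spt5-AA libraries than in either Spt4-AA library. Their summed level was 1181 and 1025 rescaled reads in Spt5-AA and 1914 and 2238 in Spt4-AA. GPA1, the alpha subunit of the pheromone G protein, had 146 and 135 in Spt5-AA and 326 and 345 in Spt4-AA (-1.25), and STE4, its beta subunit, had 417 and 346 in Spt5-AA and 742 and 822 in Spt4-AA (-1.04). RME1, a repressor of meiosis, fell by 1.42 on the log2 scale, with FAR1 the fourth. Of the 5 MATa genes, MFA1, which encodes a-factor, was called higher with 535 and 594 in Spt5-AA and 302 and 304 in Spt4-AA (0.89, but -0.69 on the deposited scale), and BAR1, the protease that removes alpha-factor, was called lower (-0.78). The 4 listed genes of stationary-phase cells summed to 3490 and 3766 rescaled reads in Spt5-AA and 107 and 59.5 in Spt4-AA, mostly from HSP12, and the 3 tested, HSP12, SNZ1 and SPG1, all rose. The part of culture phase in the changes above was not tested.

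Nutrient pathways were above the median gene where they concern sulfur and nitrogen. Of 26 genes of sulfate assimilation and methionine synthesis 11 rose (42.3%) and 0 fell. Their median of 0.47 turned to -1.09 on the deposited scale. MET6, methionine synthase, had 2358 and 1989 rescaled reads in Spt5-AA and 372 and 447 in Spt4-AA, where it was close to its 418 and 364 with DMSO in Spt5-FRB and Spt4-FRB (2.41, SE 0.219). MET32, a zinc-finger activator of the pathway, had 90.9 and 68.2 in Spt5-AA and 10.8 and 13.9 in Spt4-AA (2.59). With 1 Spt5-AA library left out, whichever it was, 8 genes of the pathway were called higher. Of 24 genes under nitrogen catabolite repression, which a good nitrogen source and active TORC1 keep low, 7 rose (29.2%) and 1 fell (4.17%). Their median of 0.47 turned to -1.12 on the deposited scale.

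DAL3, of the allantoin pathway, had 399 and 325 rescaled reads in Spt5-AA and 73.5 and 44.5 in Spt4-AA, against 15.8 in Spt5-FRB and 17.0 in Spt4-FRB with DMSO (2.63, SE 0.255). GDH1, which makes glutamate from ammonium, had 5448 and 6165 in Spt5-AA and 1237 and 2473 in Spt4-AA, with the Spt4-AA replicates far apart (1.73). The 1 fall was that of MEP3, an ammonium permease, with 61.2 and 96.0 in Spt5-AA and 137 and 162 in Spt4-AA (-0.95).

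Amino acid synthesis was divided, with 12 of 63 genes higher (19.0%) and 11 lower (17.5%), both near the background. LYS1, of lysine synthesis, had 403 and 400.5 rescaled reads in Spt5-AA and 86.4 and 61.8 in Spt4-AA (2.44), while HOM6, of the shared threonine and methionine route, had 869 and 850.3 in Spt5-AA and 2103 and 3115 in Spt4-AA (-1.57). SER3, the first enzyme of serine synthesis, had 5041 and 5163 in Spt5-AA and 1812 and 2732 in Spt4-AA, against 242 and 262 with DMSO in Spt5-FRB and Spt4-FRB. It was therefore far above DMSO in both depletions, with a difference between them of 1.20 (-0.39 on the deposited scale). Of 9 thiamine genes 3 rose (33.3%), led by SNZ1, of vitamin B6 synthesis. SNZ1 had 245 and 224 in Spt5-AA and 32.4 and 23.4 in Spt4-AA (3.04, SE 0.24). The other called thiamine genes were THI7 and THI6, and 2 were called without Spt5-AA replicate 1 and 1 without replicate 2.

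Other groups had calls in both directions. In the phosphate regulon 5 of 21 genes rose (23.8%) and 6 fell (28.6%). The 6 included VTC1, VTC2, VTC3 and VTC4, the subunits of the polyphosphate polymerase. VTC3 had 1302 and 1037 rescaled reads in Spt5-AA and 1894 and 3009.8 in Spt4-AA (-1.04), while PHM8, a phosphatase, had 928 and 613 in Spt5-AA and 238 and 163 in Spt4-AA (1.93). Without Spt5-AA replicate 1, 1 gene of this regulon was called higher and 1 lower, and without replicate 2 the counts were 2 and 1. In sterol and fatty acid synthesis 7 of 36 genes rose (19.4%) and 10 fell (27.8%). OLE1, the fatty acid desaturase, had 267 and 201 in Spt5-AA and 725 and 757 in Spt4-AA (-1.67), and MVD1, of the mevalonate route, had 616 and 635 in Spt5-AA and 133 and 206 in Spt4-AA (1.92).

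In purine synthesis and the IMD genes, 3 of 23 rose and 3 fell, 13% each way against 14.1% and 15.2% of all genes, which is near the background. ADE17, which completes the purine ring, had 1122 and 716 rescaled reads in Spt5-AA and 266 and 243 in Spt4-AA (1.82), and ADE4, the first enzyme of the route, had 433 and 339 in Spt5-AA and 1081 and 972 in Spt4-AA (-1.42). The iron regulon had 5 rises (20.8%) and 1 fall (4.17%) in 24 genes. FRE5, a putative reductase, led at 19 and 44 reads in Spt5-AA and 30 and 10 in Spt4-AA (1.94, SE 0.535). In rescaled reads FRE5 had 37.5 and 55.6 in Spt5-AA and 21.6 and 5.56 in Spt4-AA. FRE1, the reductase of iron and copper uptake, was the fall (-0.87). Cell wall genes had 6 rises (18.8%) and 4 falls (12.5%) in 32, with YPS3, a surface protease, at 77.0 and 99.8 rescaled reads in Spt5-AA and 26.6 and 15.6 in Spt4-AA (2.05) and SCW4, a wall glucanase, at 96.8 and 97.3 in Spt5-AA and 304 and 246 in Spt4-AA (-1.49). Among 50 RNA decay factors 7 rose and 4 fell, 14% and 8% against 14.1% and 15.2% of all genes. NRD1, which ends short noncoding transcripts of RNAPII, had 172 and 98.5 in Spt5-AA and 74.2 and 45.6 in Spt4-AA (1.15, but -0.42 on the deposited scale), and LSM2, of the decapping and splicing Lsm rings, had 88.9 and 74.5 in Spt5-AA and 259 and 240.3 in Spt4-AA (-1.60).

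The DMSO library of each strain shows where each depletion stood. The DMSO libraries of Spt5-FRB and Spt4-FRB were closer to each other than replicates of a depletion were, with an interquartile range of 0.234 log2 units over the 2740 genes and 99.9% of genes within 2-fold, and they have no replicate. For the 663 genes called higher, the median difference from the own DMSO library was 1.29 in Spt5-AA and 0.13 in Spt4-AA. For the 716 called lower it was -1.12 in Spt5-AA and -0.08 in Spt4-AA. The calls chose these genes, so the medians are a description. Among groups, stress genes and ribosomal protein genes lay on the same side of DMSO in both depletions and further from it in Spt5-AA. Proteasome genes lay above DMSO by 0.30 in Spt5-AA and 0.61 in Spt4-AA, and TCA cycle genes by 0.58 in Spt5-AA and 0.55 in Spt4-AA.

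**Figure D4:**
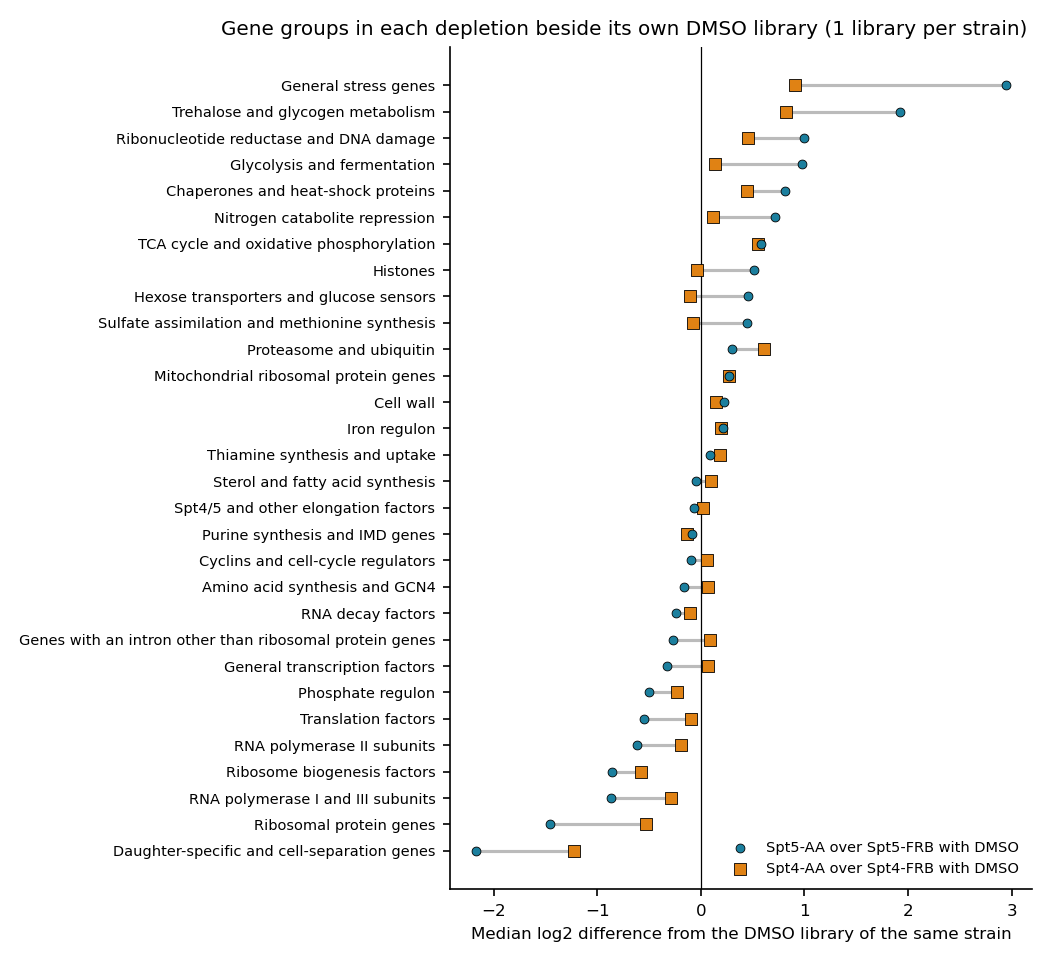
Median log2 difference from the DMSO library of the same strain (horizontal axis) for each gene group, with circles for Spt5-AA and squares for Spt4-AA. General stress genes stand at 2.94 in Spt5-AA and 0.91 in Spt4-AA, and ribosomal protein genes at -1.46 in Spt5-AA and -0.53 in Spt4-AA.

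When the strain difference in DMSO was taken off in one limma fit over the 6 libraries, 169 genes were called, 105 higher and 64 lower, and all 169 were among the 1379. Of the 1379, 1375 kept their direction. At an unadjusted p under 0.05 there were 948 genes. For the 663 genes called higher, the median log2 fold change was 1.07 in the main comparison and 1.08 in this fit. For the 716 called lower it was -0.95 in the main comparison and -0.98 in this fit. By these medians the changes were not smaller, and the fit rests on 1 DMSO library per strain. Fewer calls are therefore not by themselves smaller changes. The groups kept their calls unequally in this fit. General stress genes had 13 rises in place of 19, chaperones 6 in place of 13, trehalose and glycogen genes 4 in place of 8, sulfate and methionine genes 4 in place of 11, glycolysis genes 3 in place of 14, DNA damage genes 2 in place of 9 and histone genes 0 in place of 6. Ribosomal protein genes had 15 falls in place of 84, translation factors 2 in place of 15, genes of daughter cells 1 in place of 8, ribosome biogenesis genes 0 in place of 18 and RNAPII subunits 0 in place of 4.

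The changes ran with how abundant a gene was with DMSO. Genes were put into 5 bins of equal size by their reads per kb of coding length in the DMSO libraries, which took no part in the comparison. In the lowest bin 22.2% of genes rose and 0.649% fell, at a median log2 fold change of 0.44, and in the highest bin 7.68% rose and 40.7% fell, at a median of -0.50. The 3 bins between had medians of 0.18, -0.03 and -0.20, so the order was the same at each step. Genes in the lowest bin also had the fewest reads, a median of 39.6 against 578 in the highest, and a fall is harder to call in a gene of few reads. The highest bin holds most ribosomal protein genes, and glycolysis genes rose against the trend. The background of 14.1% higher and 15.2% lower takes no account of level. No gene group above was compared with genes of equal level, so the part of level in its counts was not tested.

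Genes with the longest coding sequences were above the median gene. The 297 genes with coding sequences of 3000 bases or more had a median log2 fold change of 0.21, with 65 called higher and 18 lower, and the 573 genes under 500 bases had a median of -0.04, with 95 higher and 108 lower. Without ribosomal protein genes the shortest bin turned, as its 489 genes had a median of 0.07, with 94 higher and 58 lower, while the longest bin held none of them. Spearman's rho between coding length and log2 fold change was 0.0961 over 4617 genes, 0.206 over those with at least 100 reads and 0.0551 without ribosomal protein genes. Genes are not independent replicates and these correlations carry no test. Length and level went together, with a median coding length of 1600.5 bases in the lowest bin of level with DMSO and 741 in the highest. The 2 were not separated. The orientation of the upstream neighbour made little difference, with a median of 0.01 where it lies on the same strand (2181 genes) and -0.00013 where it is divergent (2436 genes). Genes with an intron that are not ribosomal protein genes had a median of -0.30, with 33 of 136 lower and 10 higher, against 0.03 for the 4347 other genes without one. The counts were 16 lower and 5 higher without Spt5-AA replicate 1, 13 and 5 without replicate 2, and 3 and 1 with the strain difference in DMSO taken off. Of these intron genes SAR1, a GTPase of vesicle transport, fell most among those called, with 65.2 and 72.0 rescaled reads in Spt5-AA and 165 and 279 in Spt4-AA (-1.63).

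**Figure D5:**
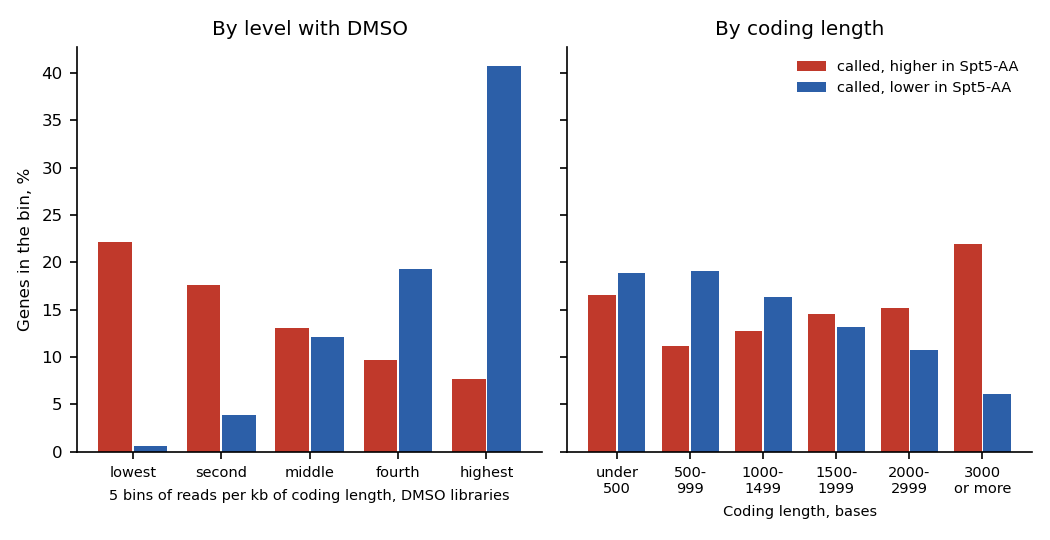
Share of genes called higher (red) and lower (blue) in Spt5-AA, in percent of each bin, by 5 bins of the level with DMSO (left) and by coding length (right). The share called lower climbs to 40.7% in the highest bin, and the share called higher is 21.9% in genes of 3000 bases or more.

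Promoters were searched on both strands from 250 bases before to 50 after the start codon, letting matches overlap. AGGGG stood in 192 of 648 promoters of annotated genes called higher (29.6%), in 129 of 708 of genes called lower (18.2%) and in 21.1% of all 4617. It stood in 16 of the 23 general stress genes, 33 of the 66 annotated genes called at least 4-fold higher, 7 of the 10 largest rises and 1 of the 10 largest falls. General stress genes are those that Msn2 and Msn4 switch on, so a high share there is partly built into the list. The largest rises share members with that list, such as HSP12, and are not separate from it. Counting 500 bases before the start codon, a window added after the data were seen, it stood in 46.3%, 30.4% and 33.8% of genes called higher, called lower and tested.

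TATAAA, the TATA box, stood in 55.1% of promoters called higher, 37.9% of those called lower and 43.4% of all. From 500 bases before the start codon it stood in 65.4% of those called higher, 57.9% of those called lower and 59.3% of all, so the groups were closer. AAAATTTT, the core of the ribosomal RNA processing element of ribosome biogenesis genes, went the other way, at 8.49% of those called higher, 14.1% of those called lower and 10.1% of all. ACGCGT, the MluI cell-cycle box, stood in 4.63% of those called higher, 2.54% of those called lower and 3.36% of all. The Gcn4 word TGACTC, the heat shock word GAANNTTC, the GATA factor word GATAAG, the Pho4 and Cbf1 word CACGTG and the PAC word GCGATGAG each had shares among genes called higher and called lower close to their share of all promoters, such as 9.26% and 8.47% against 8.36% for TGACTC. A match is a description of these letters and no site.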

How the data were processed

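The authors sequenced total RNA after removing ribosomal RNA (Ribominus) with a directional library kit (NEBNext Ultra II), with Schizosaccharomyces pombe cells added to each pellet. The processing notes of the submitters name Trim Galore, TopHat and DESeq2 and the builds sacCer3, R64 and ASM294v2, without versions. The counting tool, its strand setting and the source of the size factors are not given in the sources used here. The values used are the deposited signal, normalized by the authors as reads divided by a factor per library, in 1 table per depletion. Dividing each column by its smallest value above 0 gave whole reads for 100% of values (tolerance 0.01), and the reads of the DMSO libraries were identical in both tables at all 4835 genes. The values are not coverage. Read counts are thus recovered from them. For the authors' scale, the tables were joined through the DMSO libraries that both hold.

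Genes with a mean of at least 10 reads over the 4 depletion libraries were kept (4696 of 4835), of which 4617 were matched to the RefSeq R64 annotation by gene identifier. Reads were divided by median-ratio factors ("rescaled reads") and log2(rescaled reads + 1) was tested in limma 3.58.1 with an intensity trend (R 4.3.3), 2 Spt5-AA against 2 Spt4-AA libraries, two-sided, with Benjamini-Hochberg adjustment and a threshold of 0.05. Fold changes of low genes are understated on this scale. Alternatives were edgeR 4.0.16 and DESeq2 1.42.0 on the recovered reads (1309 and 1031 genes called), other pseudocounts (0.1 and 10), filters and scales, thinning to the shallowest library, a replicate block, leaving out each library, and a fit that takes off the strain difference in DMSO. In simulated data for this comparison (4689 genes), 65% of 100 genes changed by a log2 fold of 1 and 98% of 100 changed by a log2 fold of 2 were called, and 0.0223% of 4489 unchanged genes. The simulation changed few genes, equally up and down, with no difference of strain or time. In the data 29.4% of genes were called, so the simulated rates need not hold here.

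Genes named are the 10 largest rises and falls among genes called with a mean of at least 50 rescaled reads in one group and no overlap, the targets and markers, and the largest rise, largest fall and most abundant member of each list. Other genes named complete a short count or illustrate a list and were chosen after their values were seen. The samples were given by their labels, and the gene lists were chosen with earlier results of these data known. Near-identical copies were genes sharing at least 90% identity over at least 50% of the coding sequence (BLAST+ 2.17.0). Reads that overlapping genes share could not be separated. The table of the SPT4 deletion strain and the ChIP and NET-seq samples were not analysed here, and the tables of DESeq2 fold changes and p-values that the authors made for each depletion and for the deletion strain were not used.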

Additional observations from a re-analysis of the deposited data

Results flagged for a closer look

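The difference between Spt5-AA and Spt4-AA was set against the difference between the Spt5-FRB and Spt4-FRB strains with DMSO, as an interaction term in limma over 6 libraries. The difference of the rapamycin libraries from DMSO was unlike between the strains at 169 genes. Of these 105 were higher in Spt5-AA, led by HSP12, TMA10, HSP42, ICL1 and YGR201C, and 64 lower, led by IZH4, YOR121C, CLB1, RPS28B and RPL4B. Rapamycin lasted 180 min in Spt5-AA and 140 min in Spt4-AA, and DMSO 120 min in both strains. Drug, depletion and time therefore cannot be told apart here. Each strain had 1 DMSO library, so its spread was taken from the depletion libraries.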

How the results depend on the processing

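On the authors' deposited scale 4146 genes were called, 51 higher and 4095 lower, since that scale moves all genes by a median of -1.55, and 879 of the 1379 genes called kept their direction. Of the targets, markers and genes named by the rule, directions turned there for RPO31 (-0.997), CCL1 (-0.84), SPB4 (-0.18), TEF2 (-0.31), ADH1 (-0.18), HXT3 (-0.98), UBI4 (-0.69), HHT2 (-0.031), THI6 (-0.77), SER3 (-0.39), NRD1 (-0.42), RNR4 (-0.56), MFA1 (-0.69), STE18 (-1.22), HIS3 (-0.31), RPL13A (-1.56), RPL41B (-0.31), RPL10 (-1.10) and RPL8A (-0.54). So did CWP2 (-0.12) and ERG1 (-0.81), both called higher in the main comparison. Further genes, none of them called, turned too: AGA2 (-0.97), YEF3 (-1.004), IMD4 (-1.28), RPS31 (-1.37), MRP13 (-1.39), TFG1 (-1.44), FET3 (-1.47), XRN1 (-1.48) and MFA2 (-1.50). The medians of glycolysis (-0.27), hexose transporters (-0.77), chaperones (-1.19), trehalose and glycogen (-0.69), histones (-0.73), sulfate and methionine (-1.09), nitrogen catabolite repression (-1.12) and ribonucleotide reductase and DNA damage genes (-0.56) turned as well. RPL13A and RPB3, close to 0 and not called, also turned under other alternatives, RPL13A to -0.49 at the lowest, without Spt4-AA replicate 1, and RPB3 to 0.33 at the highest, without Spt4-AA replicate 2. No other alternative turned the direction of another gene described before this section or of a list median above 0.2 in size, while medians nearer to 0 did turn.

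With the strain difference in DMSO taken off 169 genes were called, 105 higher and 64 lower. Leaving out 1 library gave 537 to 1604 calls, 271 to 790 higher and 266 to 814 lower, with the low ends without Spt5-AA replicate 1 and the high ends without Spt4-AA replicate 1. The cause was not tested. Without Spt5-AA replicate 1 and then without replicate 2, the genes called higher were 3 and 5 (lower, 5 and 5) in amino acid synthesis, 5 and 5 (0 and 0) in the TCA cycle, 1 and 2 (4 and 4) in sterol synthesis, 2 and 1 (0 and 0) in the iron regulon, 1 and 2 (1 and 3) in purine synthesis, 2 and 1 (2 and 1) in RNA decay, and 5 and 4 (0 and 1) in nitrogen catabolite repression. The calls were 1031 with DESeq2, 1309 with edgeR, 1345 with no filter, 1373 and 1405 with pseudocounts of 0.1 and 10, 1443 with equal totals, 1221 after thinning, and 1038 where only the 2740 genes averaging 100 reads or more were tested. The replicate numbers of Spt5-AA and Spt4-AA did not pair the libraries by their labels, and the deviations of same-numbered libraries correlated at 0.176 over 2740 genes. With the replicate block 1442 genes were called, and 1358 were among the 1379. With a median of 55 reads a gene, the shallowest Spt5-AA library limits what can be called in low genes.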
